A study of Mus musculus with 31 samples.

Results

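Ablim1, Gpm6a, Traf6, Ttl, Ubqln1 and Apbb2 are 6 mouse genes that each had 2 probes on the array, and the 2 probes of each gene followed one another over the strains once the first 3 principal components of the arrays were removed. In the values as deposited, the agreement was low for Ubqln1 and Ablim1. For Apbb2 it rested on a small set of arrays, both as deposited and after removal (correlation of 0.0992 after removal without that set). For Traf6 the correlation after removal was only 0.252 in the largest set of arrays described below. The 6 genes were chosen from these data for the agreement of their probes, by gene symbol, so the agreement is a description and carries no test. They were 6 of 902 genes with exactly 2 probes and of 15096 named genes in all, and both probes of every gene, 12 of 12, had a value on every array. Two-colour glass arrays compared RNA from the whole brain of 31 BXD/TyJ strains with that of C57BL/6J, each strain on a single array without a dye swap. The mice of both channels were males aged 8 weeks. Each strain sample was a pool of RNA from 3 animals labelled with Alexa Fluor 647, and the reference was labelled with Alexa Fluor 555. BXD strains are recombinant inbred lines from a cross of C57BL/6J with DBA/2J, so each line carries a fixed mixture of both parental genomes. Values are log ratios, taken as log2 and as strain over C57BL/6J. The direction is not stated in the sources used here, and all signs would turn in the other direction. Ratios give no level of a transcript, so whole-brain identity could not be checked against marker levels. Because each strain had 1 pool on 1 array, strain and array cannot be told apart, and the spread behind each p-value is that among single arrays.

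The 6 genes act in different parts of cell biology. Ablim1 encodes a LIM protein that binds actin filaments, and Ttl encodes tubulin tyrosine ligase, which returns the terminal tyrosine to alpha-tubulin. Gpm6a encodes a neuronal membrane glycoprotein of the proteolipid family with a role in neurite and filopodium outgrowth. Traf6 encodes a ubiquitin ligase that carries signals from interleukin-1 and Toll-like receptors to NF-kappaB. Ubqln1 encodes ubiquilin 1, which shuttles ubiquitinated proteins to the proteasome, and Apbb2 encodes a Fe65-family adaptor that binds the tail of the amyloid precursor protein. When 2 probes of a gene detect the same transcript, their log ratios should rise and fall together over samples, whereas probes of different isoforms need not do so.

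The probe sequences were not used here, so which exons or isoforms the probes detect is not known. The number of annotated start sites differs between the genes, with 5 for Ablim1, 2 each for Gpm6a and Apbb2, and 1 each for Traf6, Ttl and Ubqln1. Promoters are shown for Gpm6a and Ttl, whose probes agreed in each set of arrays described below. They run from 250 bases before to 50 after a start, on the plus strand, from RefSeq with build GRCm38.p6. Capitals mark the GC box GGGCGG, the letters CCAAT and the letters TATAAA, each searched on both strands, with no overlap between marked motifs. The first Gpm6a start lies at chr8:54779184-54779483, the second at chr8:54954478-54954777 and the Ttl start at chr2:129065697-129065996.
Gpm6a, first start: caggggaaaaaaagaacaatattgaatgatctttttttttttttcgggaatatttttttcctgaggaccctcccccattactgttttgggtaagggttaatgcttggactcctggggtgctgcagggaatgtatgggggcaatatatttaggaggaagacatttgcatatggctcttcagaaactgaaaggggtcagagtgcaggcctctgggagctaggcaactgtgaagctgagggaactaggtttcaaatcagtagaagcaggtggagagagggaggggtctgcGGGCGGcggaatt
Gpm6a, second start: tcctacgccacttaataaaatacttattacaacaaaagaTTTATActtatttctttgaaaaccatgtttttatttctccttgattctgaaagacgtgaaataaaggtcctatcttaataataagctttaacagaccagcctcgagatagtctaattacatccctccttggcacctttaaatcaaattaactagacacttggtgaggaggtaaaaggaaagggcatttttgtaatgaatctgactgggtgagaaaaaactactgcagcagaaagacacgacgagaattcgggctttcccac
Ttl: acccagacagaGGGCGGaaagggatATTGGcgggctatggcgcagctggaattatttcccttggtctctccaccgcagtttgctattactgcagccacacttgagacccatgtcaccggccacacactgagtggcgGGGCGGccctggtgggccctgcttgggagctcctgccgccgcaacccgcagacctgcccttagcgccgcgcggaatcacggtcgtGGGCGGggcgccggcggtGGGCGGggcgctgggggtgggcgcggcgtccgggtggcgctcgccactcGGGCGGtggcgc
The Ttl window held 5 GC boxes, 1 CCAAT match and 31 CG dinucleotides. The first Gpm6a window held 1 GC box and 4 CG dinucleotides, and the second held 1 TATAAA match and 6 CG dinucleotides. Of 32851 promoter windows of that length, 35.7% held a GC box, 37.4% CCAAT and 13.6% TATAAA, and the median number of CG dinucleotides was 7. The matches describe these letters and are not evidence of a bound factor.

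The arrays fell into sets that the labels do not name. Principal component 1, with 29.1% of the variance, set 7 arrays apart (BXD38, BXD36, BXD28, BXD23, BXD20, BXD8 and BXD6), with scores of 0.271 or more against at most 0.056 elsewhere. Component 2, with 12.1%, set apart 8 others (BXD42, BXD40, BXD39, BXD34, BXD33, BXD27, BXD22 and BXD15), and the remaining 16 are called the other 16 arrays. All arrays correlated positively with each other over spots, from 0.285 to 0.906. For the 12 probes, the first 3 components held from 16.5% (Ablim1 probe 1) to 50.3% (Ttl probe 1) of the variance over arrays. The correlation between the probes of a gene is therefore given for all 31 arrays, with these 3 components removed, and within the sets.

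Over all 31 arrays with the values as deposited, the correlation between the 2 probes was 0.693 for Gpm6a, 0.630 for Traf6, 0.489 for Ttl, 0.415 for Apbb2, 0.250 for Ablim1 and 0.167 for Ubqln1. With the first 3 components removed it was 0.755 for Ablim1, 0.746 for Gpm6a, 0.683 for Traf6, 0.657 for Ttl, 0.595 for Ubqln1 and 0.578 for Apbb2. These values were the basis on which the genes were chosen. Among the 902 genes with 2 probes they took ranks 1, 2, 5, 6, 8 and 11 after removal, but 246 (Ablim1), 7 (Gpm6a), 22 (Traf6), 74 (Ttl), 324 (Ubqln1) and 111 (Apbb2) as deposited. The median over the 902 genes was 0.0312 as deposited and 0.0170 after removal, with 66 and 18 genes above 0.5. Most genes with 2 probes thus showed little agreement between them.

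**Figure D1:**
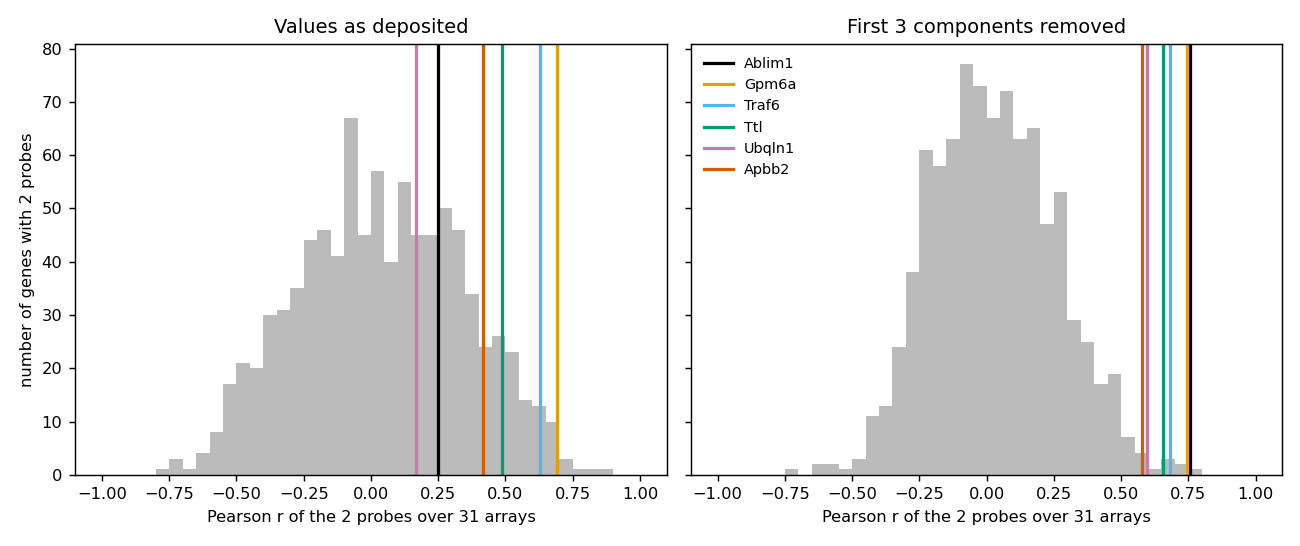
Correlation over 31 arrays between the 2 probes of each of 902 genes (grey histogram; x axis, Pearson r; y axis, number of genes), as deposited (left) and with the first 3 components removed (right). Coloured lines mark the 6 genes, which spread from 0.167 to 0.693 on the left and lie between 0.578 and 0.755 on the right.

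Within the sets of arrays the agreement was uneven. In the 7 arrays high on component 1 it was 0.969 for Traf6, 0.943 for Ablim1, 0.918 for Apbb2, 0.776 for Ubqln1, 0.708 for Ttl and 0.706 for Gpm6a. Some of these values leaned on 1 array. For Ubqln1, BXD36 stood at 0.47 and 0.22 on the 2 probes, with the next highest of this set at −0.19 and 0.025. For Apbb2, BXD38 stood at −0.54 and −0.41, with the next lowest at 0.11 and 0.17. Correlations within this set with 1 array left out were not examined. Over the 902 genes the median in these 7 arrays was 0.0447, with quartiles of −0.281 and 0.350. There 137 of the 902 genes lay above 0.5, against 96 in the 8 arrays high on component 2 and 67 in the other 16. The 6 genes were chosen on a correlation that includes these arrays, so their height above the 902 genes carries no test. In the 8 arrays high on component 2, Gpm6a (0.859), Traf6 (0.833) and Ttl (0.625) agreed, whereas Ubqln1 (0.348), Ablim1 (0.342) and Apbb2 (0.243) were lower. In the other 16 arrays the values were 0.641 for Gpm6a, 0.492 for Ttl, 0.478 for Ablim1, 0.284 for Ubqln1, 0.232 for Apbb2 and 0.0377 for Traf6. Thus Gpm6a and Ttl kept a correlation of at least 0.49 in each set, and Traf6 did so in the smaller 2 sets but not in the largest. All arrays share the reference RNA, and 7 or 8 arrays fix a correlation loosely.

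**Figure D2:**
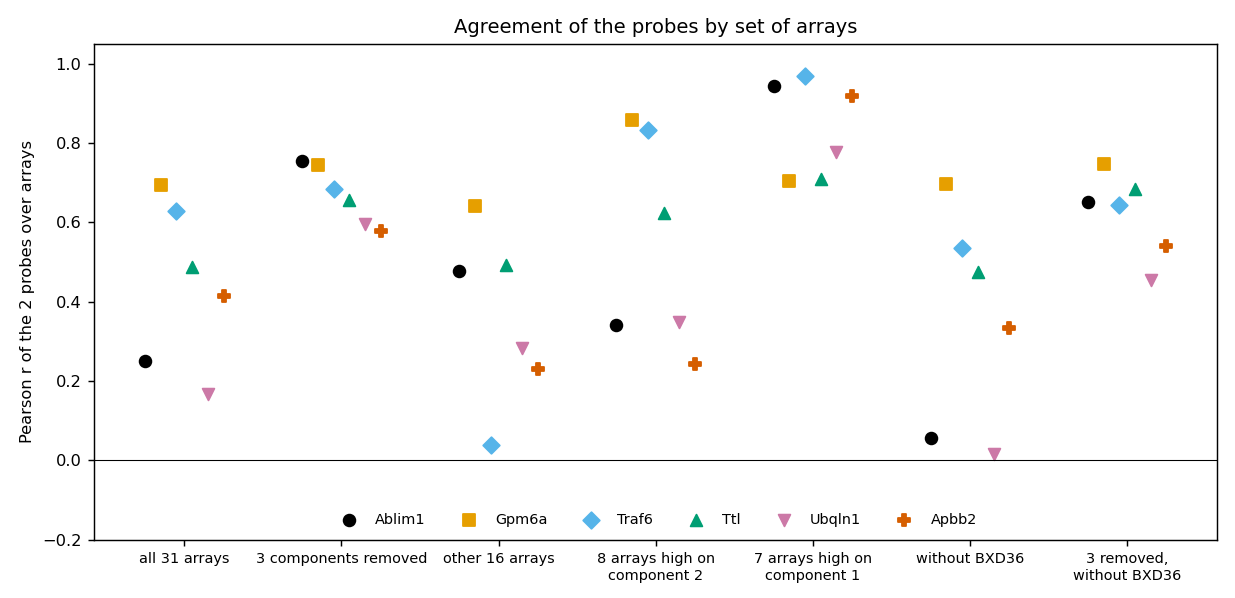
Pearson correlation between the 2 probes of each gene (y axis) in 7 selections of arrays or processing (x axis), with 1 symbol per gene and no error bars. In the 7 arrays high on component 1 all 6 genes lie between 0.706 and 0.969, while in the other 16 arrays they spread from 0.0377 to 0.641.

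For Ablim1 and Ubqln1 the low correlation over all arrays went with opposite shifts of their probes between sets. Ablim1 probe 1 had a mean of −0.073 ± 0.63 (SD, n = 7) in the arrays high on component 1 and 0.27 ± 0.22 (SD, n = 16) in the other 16. Ablim1 probe 2 moved the other way, with 0.11 ± 0.21 (SD, n = 7) and −0.16 ± 0.12 (SD, n = 16). Centring each set on its own mean gave a correlation of 0.736 for Ablim1 and 0.446 for Ubqln1. For Ubqln1 the arrays high on component 2 differed, with a mean of −0.31 ± 0.067 (SD, n = 8) on probe 1 and 0.091 ± 0.19 (SD, n = 8) on probe 2. In the other 16 arrays Ubqln1 had −0.13 ± 0.19 on probe 1 and −0.16 ± 0.13 on probe 2 (SD, n = 16). Apbb2 had such a shift too, with means of 0.39 on probe 1 and −0.077 on probe 2 in the arrays high on component 2. In the other 16 its means were 0.053 and 0.024. Both its probes were higher in the arrays high on component 1, at 0.25 and 0.32. Centring the sets gave 0.618 for Apbb2, against 0.415 as deposited.

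The 2 probes of a gene were not neighbours on the array. The probe numbers of a pair lay from 2075 (Traf6) to 20547 (Apbb2) spots apart, always in different blocks of 480 spots. Subtracting the median of its block from each value gave 0.693 for Gpm6a, 0.627 for Traf6, 0.486 for Ttl, 0.431 for Apbb2, 0.221 for Ablim1 and 0.170 for Ubqln1. The largest shift was that of Ablim1, from 0.250 without the subtraction. None of the 12 probes lay at the eighth place of a run of 8 spots, where the average mean log ratio of named probes was −0.51 against −0.013 to 0.080 at the other places.

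The actin-binding gene Ablim1 had BXD38 and BXD36 at its ends once the components were removed. Probe 1 ran from −1.19 in BXD38 through a median of 0.33 to 0.85 in BXD36. Probe 2 ran from −0.39 in BXD16 through a median of −0.14 to 0.50 in BXD36. BXD36 was therefore highest on both probes, but BXD38, lowest on probe 1, stood at −0.19 on probe 2, where it ranked 22 of 31 from the top. With the 3 components removed, BXD38 was lowest on both (−1.13 and −0.28) and BXD36 highest on both (0.93 and 0.41). Without BXD36 the correlation fell from 0.250 to 0.0572 as deposited and from 0.755 to 0.652 after removal. Without BXD36 and BXD38, a setting chosen after the values were seen, it was −0.0286 and 0.506.

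Apbb2, the gene of the amyloid precursor adaptor, rested on the same arrays. Its probe 1 ran from −0.54 in BXD38 through 0.21 to 0.67 in BXD42, and its probe 2 from −0.41 in BXD38 through −0.016 to 0.65 in BXD24. BXD38 was lowest on both, and BXD36 was second highest on both, with 0.63 and 0.64. After removal of the components the correlation was 0.279 without BXD38 alone and 0.181 without BXD36 and BXD38. Without all 7 arrays high on component 1 it was −0.0671 as deposited and 0.0992 after removal. Outside those arrays the 2 probes of Apbb2 thus showed little agreement.

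As deposited, the strains shared by both Traf6 probes at the low end were arrays high on component 1. Those shared at the high end were arrays high on component 2. Probe 1 ran from −0.48 in BXD36 through 0.14 to 1.23 in BXD33, and probe 2 from −0.85 in BXD36 through 0.10 to 0.56 in BXD32. BXD36 and BXD6 were the lowest pair on both probes, with −0.22 and −0.44 for BXD6. BXD27 (0.95 and 0.51) and BXD33 (1.23 and 0.44) were among the 3 highest on both. BXD32, highest on probe 2, had 0.024 on probe 1. After removal of the components BXD33 and BXD27 were the highest pair on both probes, and BXD36 and BXD39 the lowest pair. BXD39, an array high on component 2, had ranked 17 and 28 of 31 from the top as deposited. Without BXD36 the correlation was 0.535 as deposited and 0.643 after removal, and in the other 16 arrays it was 0.252 after removal.

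Ubqln1, the ubiquitin shuttle gene, depended on BXD36 as well. Probe 1 ran from −0.79 in BXD20 through −0.23 to 0.47 in BXD36, and probe 2 from −0.40 in BXD12 through −0.098 to 0.43 in BXD42. BXD20 was among the 3 lowest and BXD36 among the 3 highest on both, with −0.35 and 0.22 on probe 2. The correlation without BXD36 was 0.0163 as deposited and 0.456 after removal, and without the 7 arrays high on component 1 it was −0.130 and 0.415.

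Gpm6a, the neuronal membrane glycoprotein gene, had strains of all 3 sets at its ends. Its probe 1 ran from −2.08 in BXD32 through −0.087 to 0.58 in BXD15. Probe 2 ran from −0.46 in BXD16 through 0.075 to 1.08 in BXD28. BXD16 and BXD32 were among the 3 lowest on both, and BXD15 and BXD28 among the 3 highest on both. The size differed, since BXD32 was at −2.08 on probe 1 and −0.29 on probe 2. After removal of the components the same 3 strains, BXD8, BXD16 and BXD32, were lowest on both probes. Leaving out any single array gave 0.663 to 0.738 as deposited, and in the other 16 arrays after removal it was 0.920.

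Ttl probe 1 ran from −0.21 in BXD33 through 0.20 to 0.52 in BXD32, and probe 2 from −0.44 in BXD12 through 0.17 to 0.89 in BXD32. BXD32 and BXD18 were the highest pair on both probes, with 0.48 and 0.67 for BXD18. No strain was among the 3 lowest on both. After removal of the components BXD8, BXD18 and BXD32 were the 3 highest on both, and BXD33 was among the 3 lowest on both. Without BXD32 the correlation as deposited was 0.384, the lowest value over single arrays left out. In the other 16 arrays after removal it was 0.704.

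**Figure D3:**
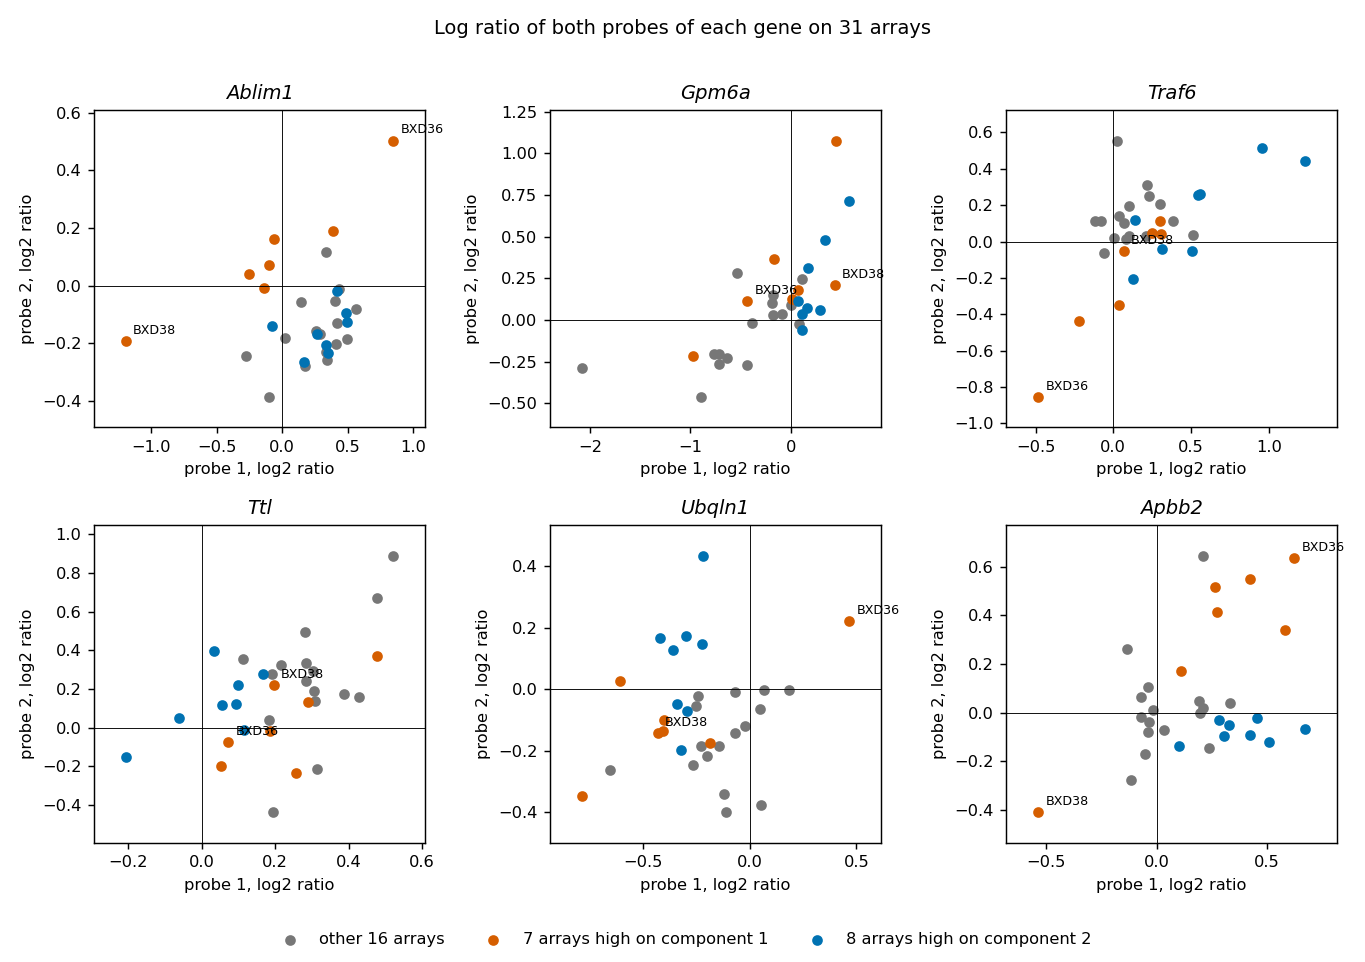
Log2 ratio of probe 2 (y axis) against probe 1 (x axis) for each gene as deposited, with 1 point per array and colours for the sets of arrays. BXD36 and BXD38 are named; BXD36 is the upper right point for Ablim1 (0.85 and 0.50) and the lower left point for Traf6 (−0.48 and −0.85).

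**Figure D4:**
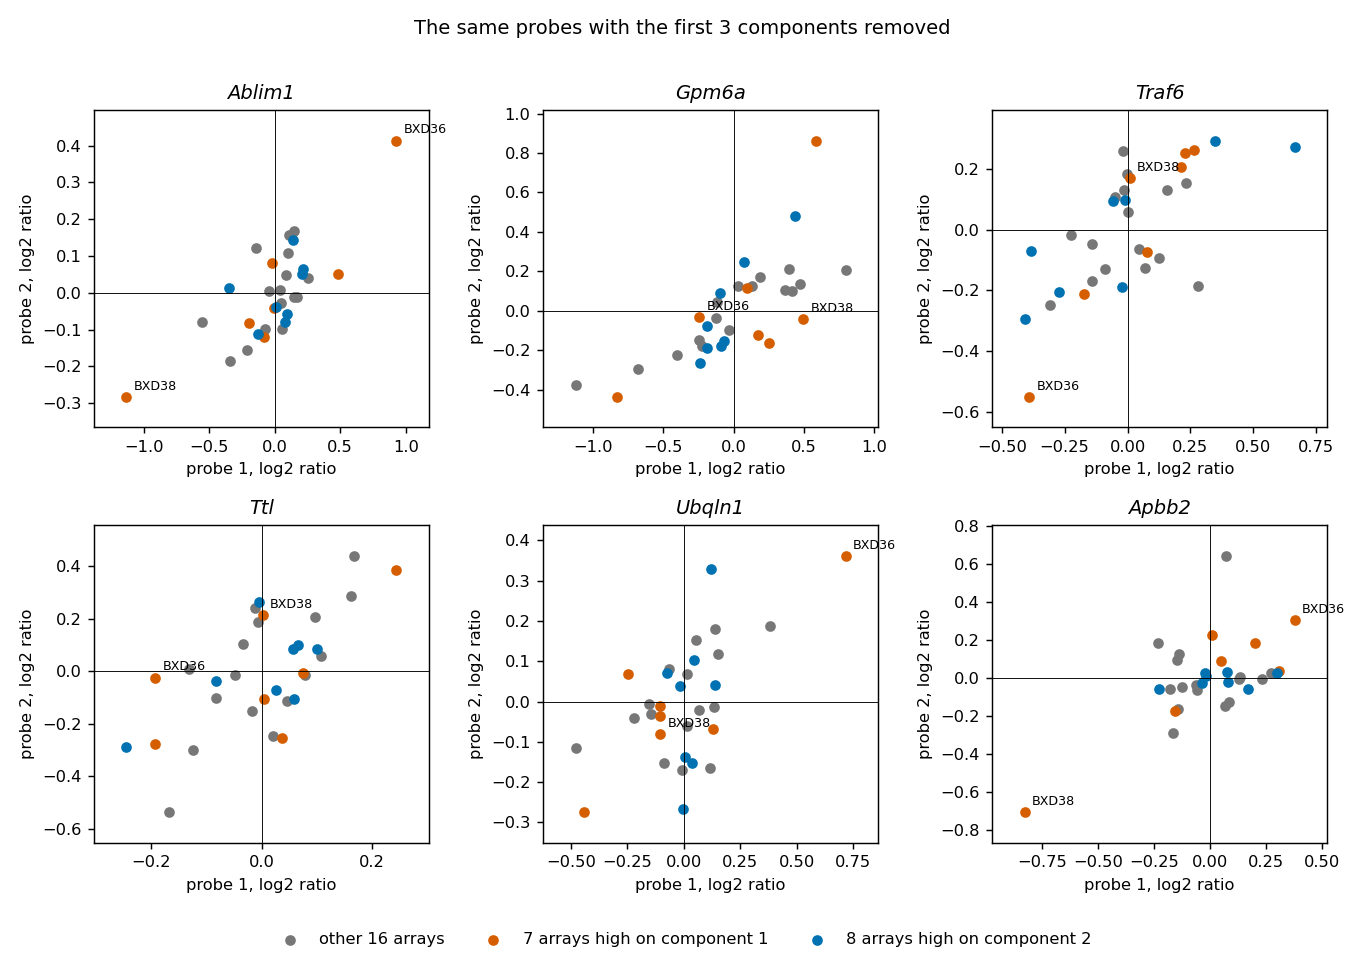
The same probes with the first 3 principal components removed and each probe centred on its mean (axes in log2 ratio, colours as for the sets of arrays). BXD38 lies at the lower left and BXD36 at the upper right for Ablim1 (−1.13 and −0.28 against 0.93 and 0.41) and for Apbb2.

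Across the 12 probes, BXD36 was among the 3 highest or the 3 lowest strains on 8 as deposited and on 9 after removal of the components, BXD32 on 6 and 7, BXD33 on 4 and 6, BXD38 on 4 and 5, and BXD8 on 3 and 5. Over all spots, BXD36 had the second largest SD of the 31 arrays after removal (0.334), behind BXD20 (0.340), with BXD38 at 0.299, BXD33 at 0.231 (rank 25) and BXD42 lowest at 0.167. BXD20 was an end strain for 3 of the 12 probes in both cases. The part of this wider spread in the agreement was not tested beyond the values without BXD36 and BXD38.

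The genes also differed in how they moved with each other. Gpm6a and Ttl ran against each other, with a correlation of their probe means of −0.605 as deposited and −0.481 after removal. After removal BXD32 and BXD8 were among the 3 lowest on both Gpm6a probes and the 3 highest on both Ttl probes. Within sets the correlation was −0.534 in the other 16 arrays, −0.554 in the 7 high on component 1 and 0.0229 in the 8 high on component 2. Ablim1 and Apbb2 ran together, with 0.518 as deposited and 0.632 after removal. This pair had 0.883 in the 7 arrays, 0.520 in the 8 and −0.145 in the other 16. Traf6 ran against Ablim1 after removal, at −0.514 with and −0.363 without BXD36, but had the other sign in the other 16 arrays as deposited (0.195). The other 12 pairs lay between −0.378 and 0.323 after removal, among them Traf6 and Ttl, both on chromosome 2, at −0.0466. Some of these pairs were further from 0 in the other 16 arrays as deposited. There Ablim1 and Gpm6a had 0.570, Ablim1 and Ubqln1 −0.507, and Gpm6a and Ubqln1 −0.488.

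The test of the mean log ratio against 0 did not use the agreement, because a correlation is unaffected by the mean. All strain pools carried the same dye and the reference the other, without a dye swap. A mean over arrays therefore cannot be told apart from an effect of dye or of the reference sample. That limit holds for every mean against 0 given below. Limma's moderated test over all 23040 spots called 9 of the 12 probes, of which 5 lay above 0 and 4 below, while the background was 76.2% of all spots (42.0% above and 34.3% below). The share among these probes is therefore close to the background. Their means ranged from −0.22 to 0.21, while the median size of the mean over all spots was 0.23. Against a change of 1.2-fold limma called 0 of the 12 (0 also at an unadjusted p under 0.05), against 28.2% of all spots. With 1 array left out, the test against 0 called 7 to 9 of the 12, beside 75.5% to 76.6% of all spots.

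Agreement over strains did not go with equal means. The mean of Ablim1 probe 1 was 0.20 ± 0.064 (SE, n = 31; limma adjusted p = 0.00575) with 23 of 31 arrays above 0, whereas its probe 2 had −0.097 ± 0.033 (SE, n = 31; limma adjusted p = 0.00947) with 25 below 0. Probe 1 exceeded probe 2 on 25 of 31 arrays, by 0.30 ± 0.36 (SD) on average. Gpm6a had −0.20 ± 0.093 on probe 1 (limma adjusted p = 0.0464) and 0.083 ± 0.054 on probe 2 (limma adjusted p = 0.166), with probe 2 higher on 25 of 31 arrays. The Gpm6a call on probe 1 was lost without any 1 of 15 arrays, up to a limma adjusted p of 0.0826 without BXD32. Averaging the probes before the fit left Ablim1 at 0.051 (limma adjusted p = 0.251) and Gpm6a at −0.061 (limma adjusted p = 0.423).

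The other genes had probes of 1 sign. Both probes of Ttl were positive, at 0.21 ± 0.031 (SE, n = 31; limma adjusted p = 2.48e-07; 29 of 31 arrays above 0) and 0.17 ± 0.048 (limma adjusted p = 0.00246; 23 of 31). The pair differed by 0.047 on average, with probe 1 higher on 16 of 31 arrays. Both probes of Ubqln1 were negative, at −0.22 ± 0.045 (limma adjusted p = 4.11e-05; 26 of 31 below 0) and −0.082 ± 0.035 (limma adjusted p = 0.0362; 24 of 31 below 0), the latter lost without any 1 of 10 arrays. Traf6 had 0.21 ± 0.058 on probe 1 (limma adjusted p = 0.00123) and 0.064 ± 0.049 on probe 2 (limma adjusted p = 0.230), and without BXD36 the second probe passed too, at 0.095 (limma adjusted p = 0.0329). Apbb2 had 0.18 ± 0.047 on probe 1 (limma adjusted p = 7.94e-04) and 0.064 ± 0.047 on probe 2 (limma adjusted p = 0.210). Ttl and Ubqln1 were thus the 2 of the 6 genes with both probes called in 1 direction. Of all spots, 42.0% were called above 0 and 34.3% below. These shares are of single spots. How many of the 902 genes with 2 probes had both called alike was not counted, so whether this is particular to Ttl and Ubqln1 is not known.

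**Figure D5:**
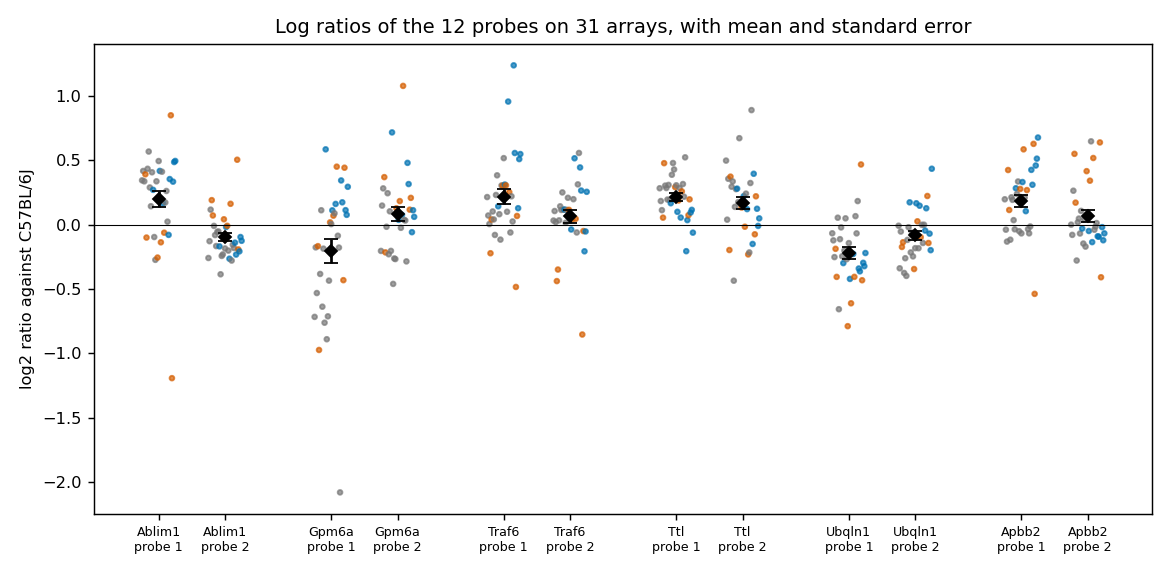
Log2 ratio against C57BL/6J (y axis) of the 12 probes, 1 point per array coloured by set as in the scatter plots (grey, the other 16; orange, 7 high on component 1; blue, 8 high on component 2). Black diamonds and bars give the mean and standard error over 31 arrays, from −0.22 for Ubqln1 probe 1 to 0.21 for Traf6 probe 1 and Ttl probe 1.

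The mean also varied between sets of arrays. Gpm6a probe 1 averaged −0.47 ± 0.53 (SD, n = 16) in the other 16 arrays, −0.085 ± 0.50 (SD, n = 7) in the 7 and 0.23 ± 0.17 (SD, n = 8) in the 8 high on component 2, so its sign turned. Ttl probe 1 averaged 0.30 ± 0.11 (SD, n = 16), 0.22 ± 0.14 (SD, n = 7) and 0.036 ± 0.12 (SD, n = 8). Traf6 probe 1 was highest in the 8 arrays, with 0.55 ± 0.38 (SD, n = 8) against 0.13 ± 0.17 (SD, n = 16). Fitted alone, limma called 9 of the 12 probes in the other 16 arrays, against 76.1% of all spots. It called 8 in the 8 arrays, against 74.9%, and 1 in the 7, against 47.5%.

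Strain numbers divide the panel into 24 strains up to 32 and 7 strains from 33, and a correlation does not use which strain is which. Limma called 0 of the 12 probes between these sets (3 of 12 at an unadjusted p under 0.05), against 0.482% of all spots called and 20.5% at an unadjusted p under 0.05. Adjusted p ran from 0.0678 to 0.972. The lowest was that of Ttl probe 1, which ranged from −0.21 to 0.20 with a median of 0.073 in the 7 strains and from 0.054 to 0.52 with a median of 0.28 in the 24. The groups overlapped, and the difference was −0.23 ± 0.064 (SE). Without BXD22 or BXD27 this probe passed (limma adjusted p = 0.0407 and 0.0364), and Apbb2 probe 1 passed without BXD38, at a difference of 0.37 (limma adjusted p = 0.0462). Of the 7 strains, 5 were among the arrays high on component 2 and 2 among those high on component 1. With the set of arrays as a block, the difference for Ttl probe 1 was −0.11 ± 0.072 (limma adjusted p = 0.808), and limma called 0 of 23040 spots (7.26% at an unadjusted p under 0.05; 0 of the 12 probes). Within the sets it was −0.12 in the 7 arrays and −0.11 in the 8.

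The genes whose profile over 31 arrays was most like each member, by the correlation of gene means after removal of the components, lay on other chromosomes. Each is given after removal and then as deposited. For Gpm6a these were Serinc1 (0.889 and 0.923), Rab14 (0.808 and 0.847), a vesicle-trafficking GTPase, and Sdcbp (0.774 and 0.763), the syntenin gene, with values of 0.790 or more after removal without BXD36. For Ablim1 they were Actr3 (0.794 and 0.509), a subunit of the actin-nucleating Arp2/3 complex, Txndc17 (0.789 and 0.773) and the respiratory complex I gene Ndufa9 (0.781 and 0.753). For Traf6 they were Cyhr1 (0.783 and 0.865), Mbl2 (0.781 and 0.736) and Msc (0.749 and 0.662). For Ttl they were Serpina6 (0.707 and 0.609), Pym1 (0.671 and 0.690) and Prcp (0.661 and 0.236). For Ubqln1 they were Spem1 (0.833 and 0.621), St6galnac6 (0.822 and 0.754) and the substance P precursor gene Tac1 (0.751 and 0.758), with Tac1 at 0.583 after removal without BXD36. For Apbb2 they were Kif4-ps (0.784 and 0.442), A930031H19Rik (0.765 and 0.334) and Calhm2 (0.765 and 0.391). Each of these 18 genes had 1 probe, and they are the 3 highest of 15095 compared for each member.

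Strain differences that arise at a gene's own locus can be shared by neighbours in BXD strains, because a line inherits long stretches of chromosome from 1 parent. Among 10 measured genes on each side of a member, after removal of the components, 1 of 20 exceeded 0.5 for Ablim1 (4930449E18Rik at 0.611) and none did for the other 5. Over all 15095 genes compared, 312 exceeded 0.5 for Ablim1, and from 60 (Ttl) to 312 (Ubqln1) did for the other 5. With 20 neighbours for each member, these counts were not tested and say little about the locus. The medians over 20 neighbours ran from −0.0787 for Ubqln1 to 0.0629 for Traf6, within the quartiles over all genes for each member. The highest neighbours were Fbxo8 for Gpm6a (0.306), Cd44 for Traf6 (0.361), Pdyn for Ttl (0.393), Hnrnpk for Ubqln1 (0.305) and Slc30a9 for Apbb2 (0.311).

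Relatives of the members had their own means. Gpm6b, the proteolipid relative of Gpm6a, averaged 0.46 ± 0.078 (SE, n = 31; limma adjusted p = 3.25e-06), was above 0 on 29 of 31 arrays, and had a correlation of 0.394 with Gpm6a after removal. Ubqln2, a second ubiquilin, had −0.77 ± 0.042 and was below 0 on all 31 arrays, but its probe lay at the eighth place, and its correlation with Ubqln1 was 0.141. Ubqln4 had 0.021 ± 0.084 (limma adjusted p = 0.824). Apbb1, the Fe65 gene, had 0.14 ± 0.053 (limma adjusted p = 0.0180) and a correlation of −0.0585 with Apbb2. Among TRAF adaptors Traf4 had 0.27, Traf5 0.28, Traf2 0.077 and Traf1 −0.33, all passing limma, whereas Traf7 at 0.054 did not. Traf4 had a correlation with Traf6 of 0.709 as deposited and 0.424 after removal.

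The pathway lists are described by their limma calls at the level of spots, beside 76.2% of all spots. In TRAF6 signalling, 14 of 26 spots were positive, 5 negative and 7 not called, with a median mean of 0.10 against 0.038 over all spots. The inhibitor gene Nfkbia had −0.70 ± 0.063 (SE, n = 31), on an eighth-place probe. The deubiquitinase genes Cyld and Tnfaip3 had 0.51 (0.28 on the second Cyld probe, at the eighth place) and 0.40. Among tubulin-modifying enzymes 6 of 19 spots were positive and 9 negative, with a median of −0.097. The lowest were Ttll9 at −1.37 and Ttll3 at −0.69, both at the eighth place, with Ttll5 at −0.67, all relatives of Ttl that act on tubulin tails. The negative spots of Ttll4, Ttll11 and Svbp also lay at the eighth place, where named probes averaged −0.51. No positive spot of this list lay there. Of 9 spots for ubiquilins and other shuttle factors, 4 were positive, including the segregase gene Vcp at 0.32, and 4 negative, including Rad23b at −0.25 on an eighth-place probe; the median was 0.021. Of 17 spots for genes that bind or process the amyloid precursor, 9 were positive and 5 negative, with a median of 0.078. The beta-secretase gene Bace1 had −1.02 ± 0.090 (SE, n = 31) and was below 0 on all 31 arrays, while the alpha-secretase gene Adam10 had 0.51 and the adaptor gene Apba3 0.54. In the villin headpiece family all 5 spots were called, 2 positive and 3 negative, with a median of −0.25. Vil1 had 0.75 and Dmtn −0.52 on an eighth-place probe, and the 2 probes of Svil gave 0.24 and −0.25.

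Marker lists of 8 cell types were set beside the members after removal of the components. Gpm6a had the widest range of correlations with them, from −0.589 for 6 microglial genes to 0.617 for 6 oligodendrocyte genes, with 0.412 for astrocytes and 0.349 for neurons. Ubqln1 ranged from −0.525 (astrocytes) to 0.368 (microglia), Ttl from −0.416 (oligodendrocytes) to 0.141 (microglia) and Traf6 from −0.386 (blood) to 0.255 (astrocytes). Ablim1 ranged from −0.134 (neurons) to 0.314 (blood) and Apbb2 from −0.224 (endothelial cells) to 0.320 (blood). Values for the choroid plexus and pituitary lists lay between −0.225 and 0.311 over the 6 genes. The lists were not uniform in their means. Of the 6 microglial spots 2 were called positive and 3 negative, and those of Cx3cr1 and P2ry12 lay at the eighth place. Whether the genes of a list moved together over arrays was not examined. The part of cell composition in these profiles was not tested, and in bulk RNA fewer cells of a type and less RNA per cell cannot be told apart.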

How the data were processed

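Two-colour log ratios of 31 BXD/TyJ whole-brain pools against C57BL/6J were taken from the deposited table of 23040 spots, with 0 missing values. The authors deposited them as log ratios, taken here as log2 because limma writes log2 ratios; log base and direction are not stated. R 2.0.0 and limma are named, per the submitters' processing notes, without a role. All columns held the same sorted values (largest difference 0; median 0.013), so quantile normalisation between arrays had been applied, which removes any shift of a whole array. Background correction, spot filters and signal over background were not given in the sources used here, and the number of arrays limits the precision.

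Symbols came from the platform annotation (16874 probes with 1 symbol, 134 with several, 6032 with none); neighbours were ordered by RefSeq GRCm38.p6 through Entrez identifiers. Components came from probe-centred values, and sets of arrays were those scoring above 0.2 on component 1 or 2. Blocks of 480 spots were read from probe numbers, which is an assumption about the layout. Means against 0, means against 1.2-fold (treat) and strain sets were fitted with limma 3.58.1 in R 4.3.3 on all spots, two-sided, with Benjamini-Hochberg adjustment at 0.05, after a check on simulated data; correlations used scipy 1.17.1. Named genes were the members, the 3 most alike genes for each, neighbours within 10 places above 0.5, measured relatives and up to 3 list genes with the smallest adjusted p. The members and lists were chosen with earlier results of these data known.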

Additional observations from a re-analysis of the deposited data

Results flagged for a closer look

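Among the 7 strains numbered from 33, a strain stood far from the others on 5 of the 12 probes, measured as its gap to the nearest strain divided by the range (critical value 0.568, which chance passes in about 1 in 20 groups of values not used to choose the genes). The genes were chosen on these same values, so this chance rate does not apply and the gaps are a description. BXD36 was far above the rest on Ablim1 probe 2 (0.815; log ratio 0.50, nearest −0.097), on Ubqln1 probe 1 (0.765; 0.47, nearest −0.22) and on Apbb2 probe 2 (0.628; 0.64, nearest −0.020). It was far below the rest on Gpm6a probe 1 (0.581; −0.43, nearest 0.075). BXD38 was far below the rest on Apbb2 probe 1 (0.698; −0.54, nearest 0.31). Both strains belong to the 7 arrays high on component 1, whereas the other 5 strains from 33 belong to those high on component 2. Among the strains from 33 alone, a gap of the strain and one of its set are therefore mixed. Within the arrays high on component 1, the nearest to BXD36 was BXD6, at 0.19 on Ablim1 probe 2, −0.19 on Ubqln1 probe 1 and 0.55 on Apbb2 probe 2. The nearest to BXD38 on Apbb2 probe 1 was BXD8 at 0.11. On Gpm6a probe 1, BXD8 lay below BXD36, at −0.97. The cause of the gaps was not tested. The 24 strains up to 32 were too many for this check.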

How the results depend on the processing

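No paired analysis was possible because each strain had 1 array and the labels give no replicate numbers. Correlations left the 95% interval of the value over all 31 arrays as follows; the cause was not tested. For Ablim1 they were 0.640 with component 1 removed, 0.755 with 3 removed, 0.943 in the 7 arrays, 0.736 with sets centred, and with 3 removed 0.652 without BXD36 and 0.556 in the other 16. For Gpm6a they were 0.859 in the 8 arrays and 0.920 in the other 16 after removal. For Traf6 they were 0.0377 in the other 16 (0.252 after removal), 0.969 in the 7 and 0.833 in the 8. For Ubqln1 they were 0.595 after removal, 0.776 in the 7 and 0.517 in the other 16 after removal. For Apbb2 they were 0.918 in the 7 and −0.0671 without them. The settings without named arrays and those joining removal with a choice of arrays were chosen after the data were seen.

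Against 1.2-fold, 6494 spots and 0 member probes passed; in the 7 arrays alone 10936 spots and 1 member probe passed. Means turned sign in the other 16 arrays for Gpm6a probe 2 (−0.064). In the 7 they turned for Ablim1 (−0.073 and 0.11) and Traf6 probe 2 (−0.21). In the 8 they turned for Gpm6a probe 1 (0.23), Ubqln1 probe 2 (0.091) and Apbb2 probe 2 (−0.077). In the other direction of the ratio all 12 turn, to −0.20 and 0.097 for Ablim1, 0.20 and −0.083 for Gpm6a, −0.21 and −0.064 for Traf6, −0.21 and −0.17 for Ttl, 0.22 and 0.082 for Ubqln1, and −0.18 and −0.064 for Apbb2. With 1 array left out, 7 to 9 member probes were called, against 75.5% to 76.6% of all spots. The call for Gpm6a probe 1 was lost without BXD1, BXD2, BXD5, BXD6, BXD8, BXD9, BXD12, BXD13, BXD14, BXD16, BXD18, BXD19, BXD31, BXD32 or BXD36 (limma adjusted p from 0.0522 to 0.0826). That for Ubqln1 probe 2 was lost without BXD2, BXD9, BXD11, BXD12, BXD16, BXD19, BXD20, BXD21, BXD24 or BXD40 (0.0510 to 0.0650).

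Between strain sets, 111 spots were called, but 0 with sets of arrays as a block, 0 within the 7, 0 within the 8 and 0 with 3 components removed. With 1 array left out the count ran from 0 (BXD39, BXD40 or BXD42) to 662 (BXD27), moving by over 1.5 times for 29 of 31 arrays, and from 0 to 1 for member probes. With the block the difference turned for Gpm6a probe 2 (−0.12) and Traf6 probe 1 (−0.077). Within the 7 it turned for Gpm6a probe 2 (−0.15), Traf6 probe 1 (−0.34), Ttl probe 2 (0.060) and Apbb2 probe 1 (−0.29). Within the 8 it turned for Ablim1 (0.033 and −0.0099), Gpm6a (−0.086 and −0.094) and Ubqln1 probe 2 (−0.11). After removal it turned for Ablim1 probe 1 (0.0068), Gpm6a (−0.049 and −0.043), Traf6 probe 1 (−0.040) and Ttl probe 2 (0.019). With the array left out that gave the smallest or largest adjusted p, it ran from −0.013 to 0.20 for Ablim1 probe 1 (without BXD38 for the latter), from −0.062 (without BXD36) to 0.022 for Ablim1 probe 2 and from −0.10 (without BXD36) to 0.00033 for Ubqln1 probe 1, and it was 0.017 for Traf6 probe 2 without BXD36. None of these differences passed.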

Other observations

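Other genes with 2 probes stood beside these 6 when ranked by agreement after removal of the components; they were named after their values were seen. Rpl35a, encoding a protein of the large ribosomal subunit, had 0.697 after removal (rank 4) and 0.858 as deposited, the highest of the 902 genes, with 0.745 in the other 16 arrays, 0.838 in the 7 and 0.684 in the 8. Srsf2, a splicing factor gene, had 0.578 after removal (rank 10) and 0.818 in the other 16 arrays, but 0.102 in the 8. Psg23, a pregnancy-specific glycoprotein gene, had 0.604 (rank 7) and −0.0203 in the 8. Sema3c, encoding a secreted axon guidance protein, had 0.702 after removal (rank 3) but −0.0447 as deposited. Pard6g, a cell polarity gene, had 0.587 (rank 9) and 0.0700 in the other 16. These values are descriptions of the same arrays and carry no test.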
